A study of Mus musculus with 12 samples.

Results

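A group of 39 genes was at least doubled in mouse 2-cell embryos after knockdown of Eif1ad3, out of 17866 genes listed. They were chosen from the measured values: a gene belongs when both knockdown libraries held at least 20 CPM (a gene's reads scaled to a common library total) and the smaller knockdown value exceeded 2 times the larger control value. Of 4852 genes that reached 20 CPM in both knockdown libraries, these 39 make up 0.804%. The mirror rule, with both controls at 20 CPM or more and the smaller control above 2 times the larger knockdown value, was met by 30 of 5168 genes. Since the rule used all 4 libraries of this experiment, the knockdown and control values of the 39 genes are given as a description. All 39 were among the genes tested over the whole table, but the rule chose them on the same values, so that test is no support for them.

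Embryos came from CF1 mice. The 2 control libraries (labelled WT, replicates A and B) and the 2 knockdown libraries (labelled Eif1ad3_KD, replicates A and B) are from injected embryos collected at the 2-cell stage. By the design text, controls received mRNA for RfxCas13d, an enzyme that cuts RNA where a guide directs it, and knockdown embryos received that mRNA with a guide RNA, both at the 1-cell stage. The sample protocol differs and names control or antisense morpholino oligos, given to oocytes together with Cas13d protein. A second experiment immunoprecipitated RNA (RIP) from embryos labelled Eif1ad3_OE: zygotes were given 200 ng/uL of mRNA for Eif1ad3 with a 6xHis tag, and each replicate, made from 200 cells, was bound to beads with an anti-His antibody (2 libraries, His) or with IgG as the negative control (2 libraries). The labels do not say how many embryos an RNA-seq library holds or whether replicates A and B were separate collections, so p-values measure the spread between these samples, which may be technical. In such bulk libraries, fewer cells of a type and less RNA per cell cannot be told apart.

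The 2-cell stage of the mouse is when the embryo's own genome becomes broadly transcribed while messenger RNA stored in the egg is removed. Eif1ad genes form a multigene family related by sequence to eIF1A, a factor that helps the small ribosomal subunit scan for the start codon. Genes of many pathways are transcribed at this stage, among them the secretory and lipid-synthesis machinery that nearly every cell type uses.

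The control and knockdown libraries held between 18173916 and 27902514 reads each, and the His and IgG libraries between 4678563 and 8364126. Eif1ad3 itself was at 663 to 839 CPM in the controls and at 277 to 377 CPM in the knockdown libraries (log2 difference -1.21). All 9 listed Eif1ad genes had a lower mean of log2(CPM + 1) in knockdown embryos, to unequal degrees. The difference was largest for Eif1ad6 (-1.68), Eif1ad8 (-1.63) and Eif1ad16 (-1.27), and smallest for Eif1ad (-0.18). Eif1ad was at 75.7 and 137 CPM in controls and at 71.4 and 112 CPM in knockdown embryos, which overlap. Eif1ad7 (-1.13) was at 288 and 635 CPM in knockdown A and B, and Eif1ad4 (-0.74) at 92.5 and 221 CPM. None of the 9 is a member, and reads may be shared between these related copies. Summed over the 40 listed genes of a 2-cell embryo list, the level was 16030 to 18122 CPM in controls and 11717 to 16454 CPM in knockdown embryos. For the 49 listed oocyte genes the sum was 63144 and 53565 CPM in control A and B. It was 77154 and 51783 CPM in knockdown A and B. Among them, H1f8 was at 1299 and 53.8 CPM in knockdown A and B (176 and 195 CPM in controls). Gdf9 was at 1005 and 91.2 CPM there (345 and 283 CPM in controls), whereas Oosp3, at 661 and 771 CPM, was closer. Across genes on the log2(CPM + 1) scale, the 2 knockdown libraries correlated at 0.906 and the 2 controls at 0.962. Of 18 cumulus or granulosa cell genes, the 11 listed summed to 165 to 248 CPM in controls and 119 to 128 CPM after knockdown. The 3 listed blood genes, of 7, summed to 19.8 to 27.4 and 8.2 to 22.5 CPM, and none of the 39 genes is on these 4 lists; their part in the results was not tested. The IgG libraries stand apart from the rest: 12574 and 12217 of 19390 listed genes had 0 reads in them, against 5146 and 5313 in the His libraries, and across genes on the log2(CPM + 1) scale the 2 IgG libraries correlated at 0.465 against 0.895 for the 2 His libraries.

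Promoter windows of 4 of the genes are shown because the genes with the largest changes differ in CpG content there: the 3 genes with the highest ratio, and Zfp735, a zinc-finger gene, which was added after its window was seen. Each window runs from 250 bases before to 50 bases after the annotated start (RefSeq, build GRCm38.p6; the submitters' notes name GRCm39 for the reads), 5′ to 3′ on the gene's strand, with every CpG in capitals. The windows lie at chr14:13914472-13914771 on the minus strand for Gm281, chr3:40708621-40708920 on the plus strand for Slc25a31, chr1:44102392-44102691 on the minus strand for Tex30 and chr11:73688528-73688827 on the plus strand for Zfp735.
Gm281: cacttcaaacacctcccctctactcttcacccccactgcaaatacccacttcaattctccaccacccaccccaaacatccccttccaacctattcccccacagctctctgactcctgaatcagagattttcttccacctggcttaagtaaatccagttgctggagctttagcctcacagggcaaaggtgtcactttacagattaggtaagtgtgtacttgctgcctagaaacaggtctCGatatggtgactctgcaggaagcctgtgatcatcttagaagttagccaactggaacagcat
Slc25a31: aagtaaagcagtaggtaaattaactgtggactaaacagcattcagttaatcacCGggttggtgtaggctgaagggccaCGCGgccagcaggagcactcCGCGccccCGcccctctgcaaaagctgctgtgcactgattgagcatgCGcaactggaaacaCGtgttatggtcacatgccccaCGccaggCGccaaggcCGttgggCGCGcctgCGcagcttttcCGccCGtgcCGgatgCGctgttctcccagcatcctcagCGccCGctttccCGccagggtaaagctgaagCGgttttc
Tex30: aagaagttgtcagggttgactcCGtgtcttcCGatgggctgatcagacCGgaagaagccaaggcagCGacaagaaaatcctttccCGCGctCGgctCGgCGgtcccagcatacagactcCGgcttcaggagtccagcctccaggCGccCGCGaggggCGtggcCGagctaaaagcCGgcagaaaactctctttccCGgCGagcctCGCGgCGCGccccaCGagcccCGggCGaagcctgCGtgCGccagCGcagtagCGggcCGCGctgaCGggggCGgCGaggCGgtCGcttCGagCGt
Zfp735: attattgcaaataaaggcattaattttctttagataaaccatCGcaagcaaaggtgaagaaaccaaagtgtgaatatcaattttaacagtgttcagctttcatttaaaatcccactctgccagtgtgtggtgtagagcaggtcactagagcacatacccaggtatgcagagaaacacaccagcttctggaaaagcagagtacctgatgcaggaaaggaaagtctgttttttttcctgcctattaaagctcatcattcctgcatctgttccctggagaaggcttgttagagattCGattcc
The window of Gm281 holds 1 CpG and that of Zfp735 holds 2, whereas the windows of Slc25a31 and Tex30 hold 22 and 38.

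Over all 39 windows found (33 of the 39 genes, some with several starts), the median ratio of observed to expected CpG was 0.792, against 0.812 for the 4903 windows of genes at 20 CPM or more in both knockdown libraries and 0.384 for all 32851 windows. A ratio of 0.6 or more was found in 29 of the 39 windows (74.4%) and in 75.7% of the windows of expressed genes. CpG-poor windows were found in members of several kinds: 1 of the 3 windows of Cept1 holds 0 CpG, that of Zfp345 holds 4 and that of Sec61g holds 6, whereas that of Zfp943 holds 21. Motifs were searched on both strands by their exact letters. The E2F letters TCCCGC were in 8 of 39 windows (20.5%), against 35.9% of windows of expressed genes and 20% of all windows. The CCAAT letters were in 16 (41%), against 39.7% and 37.4%, and the ETS letters CCGGAAG in 8 (20.5%), against 20.1% and 8.86%. The E-box letters CACGTG were in 3 (7.69%, against 10.9% and 7.15%), and TATAAA in 1 (2.56%, against 7.26% and 13.6%). The cAMP response element TGACGTCA and the YY1 letters AAGATGGCG were in 1 window each (2.56%), against 3.49% and 1.79% for the first and 3.43% and 1.4% for the second. The palindromic NRF1 motif and the sterol response letters TCACCCCAC were in none, against 2.3% and 0.51% of windows of expressed genes and 0.971% and 0.551% of all. Slc25a31 has both an E-box, at position -93 from the start, and the E2F letters, at position 20. These matches are descriptions of letters, not binding sites.

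**Figure D1:**
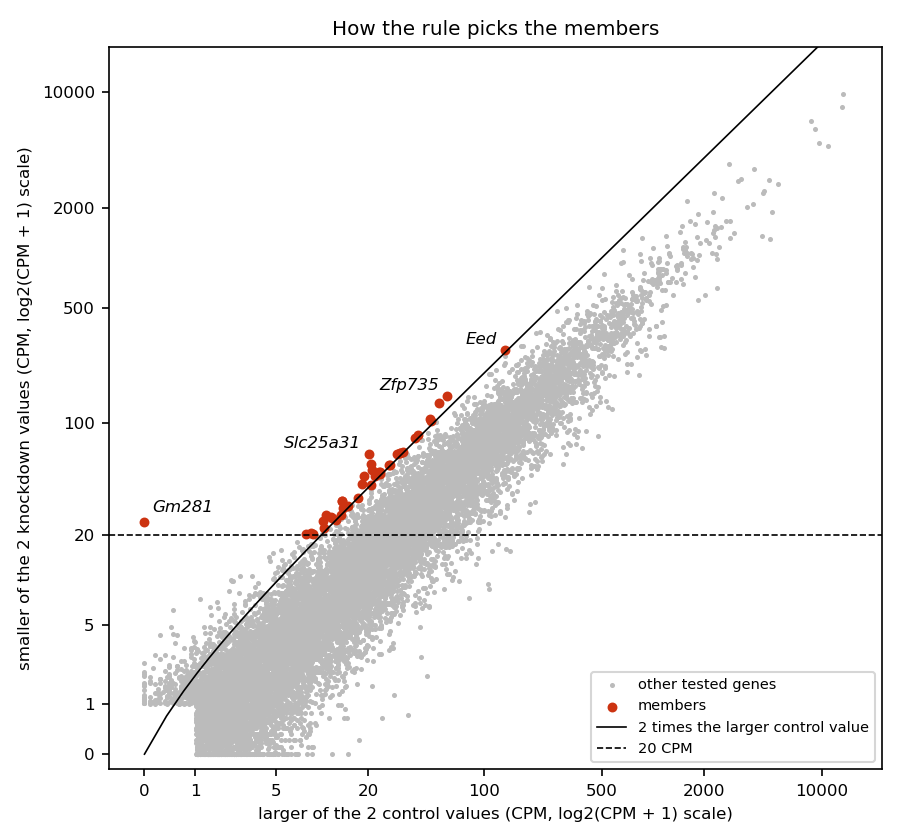
Each point is 1 of the 13332 genes with at least 1 CPM in 2 or more libraries of the knockdown experiment; the larger control value is on the horizontal axis and the smaller knockdown value on the vertical axis, both in CPM on a log2(CPM + 1) scale. The 39 members, in red, lie above 20 CPM and above the line of 2 times the control; Gm281 stands alone at 0 in the controls.

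The size of the difference was modest for nearly all of the 39 genes. The ratio used by the rule, the smaller knockdown value over the larger control value, was 2 to 2.5 for 33 genes, 2.5 to 3 for 4 and 3.18 for Slc25a31; Gm281, with no control reads, has no finite ratio. Just inside the threshold were Klf10 (2.001), 4930524B15Rik (2.003) and Glmn (2.003), and just outside it Derl2 (1.984), Tpmt (1.982) and Sacm1l (1.962), so the edge of the group is not a gap in the data. Comparing means, the knockdown mean was 2.14 to 5.07 times the control mean, with a median of 2.79, over the 38 genes with control reads. On the log2(CPM + 1) scale the difference of means was 1.05 to 5.52 with a median of 1.41, beside a median of 0.02 over all 13332 genes tested.

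No gene of the whole table passed in knockdown against control (0% called; limma, Benjamini-Hochberg adjusted p under 0.05; smallest adjusted p 0.469), with 726 genes at an unadjusted p under 0.05, 0 calls by edgeR's quasi-likelihood test and 15 by DESeq2 on recovered reads. Both knockdown libraries lay above both controls for 18.1% of the genes tested and below both for 18.4%. Taken alone, knockdown A met the rule for 464 genes and knockdown B for 553; the 39 common to both are 8.41% and 7.05% of those lists, which share the same controls. The choice of scale bears on membership: when each library was rescaled by its median, 24 genes met the rule, of which 18 were among the 39. Gm281, Slc25a31, Tex30, Zfp97, Zfp735, Zfp809, Spcs1, Sec61g, Trappc2, Golga7, Pfdn4, Cept1, Idi1 and Thoc2l are among the 18.

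The 2 knockdown libraries were close to each other for most members. The larger knockdown value was 1.01 to 3.34 times the smaller, with a median of 1.23, and it was over 1.5 times the smaller for 13 of the 39 genes. For all 4852 genes at 20 CPM or more in both knockdown libraries the median was 1.46, and 23.1% of them differed by more than 2-fold; among the members 2 did, Gm281 and Klf10. The rule reads the smaller knockdown value, so this closeness is partly set by it. Knockdown B was the higher library for 24 members and knockdown A for 15, whereas B was higher for 45.1% of the 4852 genes. The median member was at 18.3 and 18.1 CPM in control A and B and at 48.6 and 55.0 CPM in knockdown A and B. Every member had at least 373 reads in each knockdown library.

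**Figure D2:**
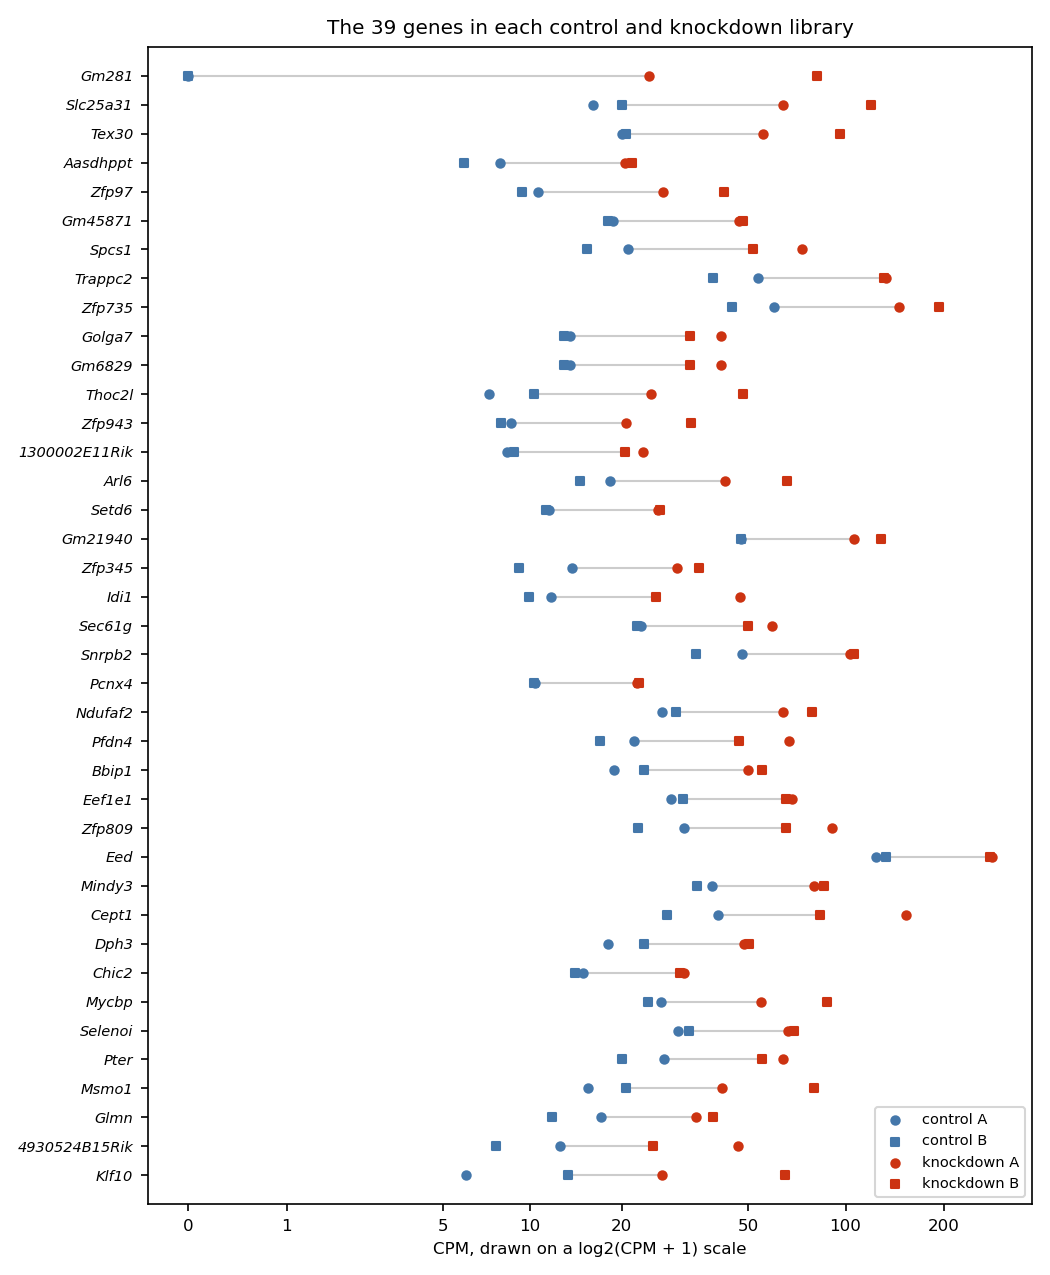
CPM of each of the 39 genes in the 2 control libraries (blue) and the 2 knockdown libraries (red), ordered by the rule's ratio, on a log2(CPM + 1) scale; circles are replicate A, squares replicate B, and grey lines join the larger control to the smaller knockdown value. The gap is narrow for most genes, and Eed has the highest values, 124 and 133 CPM in controls and 281 and 277 CPM in knockdown libraries.

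Gm281, a predicted protein-coding gene, was without a read in control A and in control B, while knockdown A held 24.4 CPM (682 reads) and knockdown B 81.7 CPM (1484 reads). Against a floor of 3 reads per control library, which is 0.12 CPM, its knockdown mean of 53 ± 40.5 CPM (SD, n = 2) is at least 441-fold higher. The 2 knockdown values differed 3.34-fold. The listed genes on either side of it in RefSeq order did not share the pattern: Synpr was at 19.5 and 12.3 CPM in controls and at 15.9 and 15.2 CPM in knockdown embryos, and Gm11100 at 5.48 and 2.61 against 11.3 and 3.03 CPM.

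Slc25a31 encodes the ADP/ATP carrier of the inner mitochondrial membrane that is best known from male germ cells. It was at 16.1 and 20.1 CPM in control A and B and at 63.9 and 120 CPM in knockdown A and B. Its means were 18.1 ± 2.83 and 91.7 ± 39.3 CPM, a 5.07-fold ratio and the largest among members with control reads. It is 1 of 31 mitochondrial carrier genes tested, and of the other 30, 12 had a higher and 18 a lower mean in knockdown embryos (here and in the lists that follow, the mean of log2(CPM + 1)), with a median log2 difference of -0.20 and none passing the test. Of 52 germline genes tested (meiosis, spermatogenesis and germ-cell genome defence), Slc25a31 was the only member. Of the other 51, 37 had a higher and 14 a lower mean, beside 51.3% higher over all genes tested, and the median was 0.16. Both knockdown libraries were above both controls for 15 (29.4%, against 18.1% of all genes) and below both for 5 (9.8%, against 18.4%). Ddx4, an RNA helicase of germ cells, was at 46.1 and 33.8 CPM in controls and at 82.4 and 79.2 CPM in knockdown embryos, and Dazl, a germ-cell RNA-binding protein, at 98.6 and 85 against 217 and 129 CPM. In the other direction, Smc1b, a cohesin subunit of meiotic cells, was at 592 and 430 against 352 and 305 CPM, and Msh5, a meiotic recombination protein, at 15 and 18.9 against 8.31 and 8.58 CPM. These 4 genes were chosen after their values were seen, and none of the 52 passed.

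Tex30, named for its testis expression, was at 20.1 and 20.6 CPM in control A and B and at 55.4 and 96.0 CPM in knockdown A and B. Its knockdown values were both above 2 times either control and differed 1.73-fold from each other.

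Zinc-finger genes were 5 of the 39, judged by symbols starting with Zfp (12.8%, against 2.08% of the 4852 genes at 20 CPM or more in both knockdown libraries); this grouping was made after the members were known. Many such genes encode DNA-binding proteins that recruit repressive chromatin, often at transposable elements. Zfp735 was at 60.2 and 44.5 CPM in control A and B and at 146 and 194 CPM in knockdown A and B. Zfp97 was at 10.7 and 9.44 CPM in controls and at 27.0 and 42.0 CPM in knockdown embryos. Zfp943 was at 8.68 and 7.99 against 20.6 and 33.1 CPM. Zfp345 was at 13.8 and 9.20 against 29.9 and 35.2 CPM. Zfp809, which is known for silencing integrated retroviruses in embryonic cells, was at 31.4 and 22.6 against 90.9 and 65.4 CPM. Over the 299 other tested genes with a Zfp symbol, 191 had a higher mean in knockdown embryos, and the median log2 difference was 0.21, against 0.02 for all genes. Without knockdown replicate B the median of these Zfp genes was 0.15 against 0.14 for all genes, and without knockdown replicate A it was 0.21 against -0.16, so the distance from all genes was present with knockdown B and nearly gone with knockdown A alone. Both knockdown libraries were above both controls for 69 of the 299 (23.1%) and below both for 37 (12.4%), and none passed the test. The 6 tested Zfp genes next to a member in RefSeq order were divided. Zfp942 (1.16, beside Zfp943), Zfp960 (1.05, beside Zfp97) and Zfp951 (0.12, beside Thoc2l) had positive log2 differences, and Zfp442 (-0.07, beside Zfp345), Zfp599 (-0.25, beside Zfp809) and Zfp947 (-0.48, beside Zfp943) negative ones.

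Proteins of the secretory pathway formed the next group. Spcs1, a small subunit of the signal peptidase that trims proteins entering the endoplasmic reticulum, was at 21 and 15.5 CPM in control A and B and at 73.3 and 51.6 CPM in knockdown A and B. Sec61g, the gamma subunit of the channel through which those proteins pass, was at 23.1 and 22.4 against 59.4 and 50 CPM. Both knockdown values of each gene lie above both controls by the rule. The other genes of the same machinery were listed after the members were known. Of the 13 other genes tested, 12 had a higher and 1 a lower mean in knockdown embryos, with a median of 0.36. Ssr3, a subunit of the translocon-associated complex, was at 30.7 and 30.6 CPM in controls and at 55.4 and 89.3 CPM in knockdown embryos. Sec11a, the catalytic subunit of the signal peptidase, was at 95.2 and 103 against 216 and 167 CPM. Sec61a1, the channel's main subunit, was at 32.4 and 45.9 against 51.4 and 27.8 CPM; its mean of log2(CPM + 1) was the lower one, by a difference of -0.03. The number higher was 13 of 13 with edgeR and DESeq2, 11 without control replicate A or without knockdown replicate B, and 10 without knockdown replicate A. Both knockdown libraries were above both controls for 6 of these 13 genes (46.2%, against 18.1% of all genes) and below both for 0 (against 18.4%), and none passed the test; their median was 0.30 to 0.56 over the alternatives run.

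Trappc2, a subunit of the TRAPP tethering complexes, was at 53.5 and 38.9 CPM in control A and B and at 133 and 131 CPM in knockdown A and B. Unlike the signal peptidase list, the 13 other TRAPP genes tested were divided, 6 higher and 7 lower, with a median of -0.05. Golga7, a partner of a palmitoyltransferase on the Golgi, was at 13.6 and 13.0 CPM in controls and at 41.0 and 32.8 CPM in knockdown embryos. The pseudogene Gm6829 had the same reads as Golga7 in every library, so the 2 genes cannot be told apart and count as 1 measurement, which leaves 38 distinct measurements.

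Lipid enzymes were represented in 2 branches. Cept1 and Selenoi catalyse the last step in the synthesis of phosphatidylcholine and phosphatidylethanolamine. Cept1 was at 40.4 and 27.8 CPM in control A and B and at 153 and 83.6 CPM in knockdown A and B. Selenoi was at 30.2 and 32.6 against 66.4 and 69.1 CPM. The third enzyme of that step, Chpt1, was at 13.5 and 21 CPM in controls and at 30 and 42.6 CPM in knockdown embryos. The pathway's other enzymes were divided: of the 6 non-member genes tested, Chpt1 included, 2 were higher and 4 lower, with a median of -0.31, and Pcyt1a, which makes CDP-choline, was at 154 and 177 against 135 and 81.8 CPM.

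In sterol synthesis, Idi1, which interconverts the 2 isoprene building blocks, was at 11.8 and 9.92 CPM in control A and B and at 47.2 and 25.7 CPM in knockdown A and B. Msmo1, a demethylating oxidase late in the pathway, was at 15.6 and 20.7 against 41.5 and 79.7 CPM. Of the 17 other genes of the pathway tested, 9 were higher and 8 lower, with a median of 0.06. Fdft1, squalene synthase, was at 703 and 720 CPM in controls and at 478 and 348 CPM in knockdown embryos, in the opposite direction to Idi1 and Msmo1.

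Arl6 and Bbip1 belong to the machinery that moves membrane proteins in cilia: Arl6 is the small GTPase that recruits the BBSome, and Bbip1 is a BBSome subunit. Arl6 was at 18.3 and 14.7 CPM in control A and B and at 42.2 and 66.2 CPM in knockdown A and B. Bbip1 was at 18.9 and 23.5 against 49.9 and 55.2 CPM. Of the 7 other BBSome genes, 4 had a higher and 3 a lower mean in knockdown embryos, with a median of 0.28.

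Eed, the subunit of Polycomb repressive complex 2 that binds trimethylated histone H3, was the only member with a control mean above 100 CPM. It was at 124 and 133 CPM in control A and B and at 281 and 277 CPM in knockdown A and B, so both libraries of each group were close. The catalytic subunit Ezh2 was at 358 and 395 CPM in controls and at 421 and 333 CPM in knockdown embryos, and Suz12 at 544 and 549 against 401 and 885 CPM, with the controls inside the range of the knockdown values in both genes. The 9 other genes of the complex tested had a median of 0.01. Setd6, a lysine methyltransferase, was at 11.6 and 11.3 against 26.1 and 26.5 CPM.

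Several members each came from a different complex of protein or RNA handling. Pfdn4, a subunit of the prefoldin chaperone, was at 21.8 and 17.0 CPM in control A and B and at 66.9 and 46.8 CPM in knockdown A and B. Snrpb2, a protein of the U2 spliceosomal particle, was at 47.8 and 34.3 against 103 and 106 CPM. Eef1e1, a scaffold protein of the multi-tRNA synthetase complex, was at 28.6 and 31.2 against 68.6 and 65.5 CPM. The partners of these 3 complexes differed in their medians. The 10 other U2 genes had a median of -0.16 (4 higher, 6 lower) and the 10 other synthetase-complex genes of -0.38 (2 higher, 8 lower). The 5 other prefoldin genes had a median of 0.50 (3 higher, 2 lower). That median is the value of Pfdn1, at 15.5 and 13.9 CPM in controls and at 51.3 and 8.36 CPM in knockdown A and B. Thoc2l, a paralogue of the THO complex subunit Thoc2, was at 7.28 and 10.3 against 24.8 and 48.3 CPM; Thoc2 itself was at 80.9 and 81.8 against 63.5 and 109 CPM. Dph3, which takes part in making the diphthamide residue of elongation factor 2, was at 18.1 and 23.5 against 48.6 and 50.2 CPM, and the 6 other diphthamide genes had a median of 0.58.

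**Figure D3:**
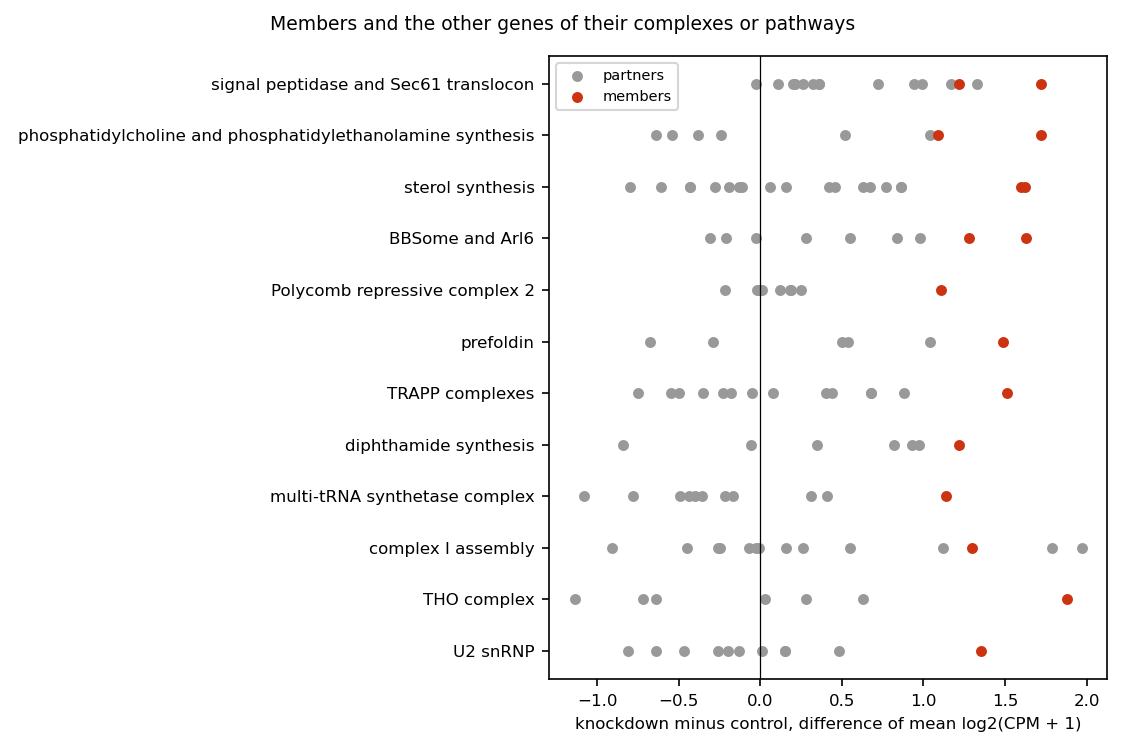
Difference between the mean log2(CPM + 1) of knockdown and control libraries for members (red) and for the other tested genes of 12 complexes or pathways (grey), 1 row per list; the lists were chosen after the members were known. Members lie to the right by the rule, and the partners lie mostly above 0 for the signal peptidase and Sec61 list (12 of 13) and on both sides of 0 for the others.

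The remaining members have separate roles. Ndufaf2, an assembly factor of respiratory complex I, was at 26.8 and 29.8 CPM in control A and B and at 64.0 and 78.6 CPM in knockdown A and B, while the 13 other assembly factors had a median of -0.01. Aasdhppt, which attaches the phosphopantetheine arm to acyl carrier protein, was at 7.96 and 5.94 against 20.5 and 21.5 CPM, just above the 20 CPM minimum. Pcnx4, a membrane protein of the pecanex family, was at 10.4 and 10.3 against 22.4 and 22.7 CPM. In Pcnx4 the 2 libraries of each group nearly coincided. Klf10, a transcription factor induced by TGF-beta, was at 6.04 and 13.4 against 26.8 and 65.0 CPM, with the libraries of both groups more than 2-fold apart. Glmn, an inhibitor of cullin-RING ubiquitin ligases, was at 17.2 and 11.9 against 34.4 and 38.7 CPM. Mindy3, a deubiquitinase, and Pter neighbour each other in RefSeq order and are both members: Mindy3 was at 38.5 and 34.7 against 80.2 and 85.7 CPM, and Pter at 27.2 and 20.1 against 64.1 and 55.0 CPM. Mycbp was at 26.7 and 24.2 against 54.7 and 87.5 CPM, and Chic2 at 15 and 14.1 against 31.5 and 30.7 CPM.

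Gene models without a descriptive name were also among the members. Symbols of the Gm or Rik kind were 6 of the 39, against 4.29% of the 4852 genes at that level. Gm45871 was at 18.7 and 18.1 CPM in control A and B and at 46.9 and 48.3 CPM in knockdown A and B. The pseudogene Gm21940 was at 47.4 and 47.6 against 106 and 129 CPM. The long noncoding RNA 1300002E11Rik was at 8.40 and 8.84 against 23.4 and 20.5 CPM, and 4930524B15Rik was at 12.6 and 7.67 against 46.6 and 25.1 CPM. By RefSeq, 36 members are protein-coding, 2 are pseudogenes and 1 is a long noncoding RNA. The median span of a member gene was 17224 bases, against 27062 bases for the genes at that level.

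Lists of stress and stage genes held no member. Of 26 p53 target genes tested, 14 had a higher and 12 a lower mean in knockdown embryos, with a median log2 difference of 0.02. The 22 genes of the integrated stress response had 8 higher and 14 lower, with a median of -0.31, and the 18 interferon and double-stranded RNA genes had 8 higher and 10 lower, with a median of -0.14. The 2-cell embryo list includes 5 Eif1ad genes, the target among them, all lower. Of its 33 other tested genes, 26 had a lower and 7 a higher mean, with a median of -0.35, and both knockdown libraries were below both controls for 15 (45.5%, against 18.4% of all genes tested). Of 47 oocyte and egg genes tested, 27 had a higher and 20 a lower mean, with a median of 0.17. Both knockdown libraries were above both controls for 8 of them and below both for 1, beside 18.1% and 18.4% of all genes tested. Of 19 later-embryo genes tested, 9 were higher and 10 lower, with a median of -0.11. No gene of these lists passed the test.

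The members overlap other genes in places. RefSeq spans of 10 members, among them Spcs1, Cept1, Trappc2, Arl6 and Zfp809, overlap a neighbouring measured gene, and the library kit does not mark strand, so reads of the pair may not be told apart. Of 54 tested neighbours that are no member, 33 (61.1%) had a higher mean in knockdown embryos, against 51.3% of all genes tested, with a median of 0.22.

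The same 39 genes were then read in the RIP libraries, which the rule did not use; all 39 are listed there. Of these, 28 reached 1 CPM in at least 2 of the 4 His and IgG libraries and were tested, and 11 were not: Gm281, Zfp97, Zfp735, Zfp345, Zfp943, Idi1, Aasdhppt, Glmn, Thoc2l, Gm21940 and Gm45871. Of the 28, 17 passed as higher in His (60.7%) and 0 as lower, beside 35.7% and 0.917% of all 11232 genes tested (limma, Benjamini-Hochberg adjusted p under 0.05). Golga7 and Gm6829, which had the same reads, are both among the 17, and with 1 of them counted 16 passed. Of the 28, 15 (53.6%) reached 1 CPM in no IgG library, as did 38.2% of all genes tested, and so entered the test through their His values alone; their count is not support for enrichment. The call also rests on the tool and the libraries: on recovered reads, edgeR's quasi-likelihood test called 0 genes of the whole table, where no adjusted p was below 0.0547, although 4592 genes were below 0.05 before adjustment. DESeq2 passed 20 of the 28 members, 2 of them as lower. Without His replicate A or without His replicate B, 13 members could be tested and 0 passed; without IgG replicate A 27 passed, 7 of them as lower, and without IgG replicate B 24 passed, 2 as lower. With 1 IgG library left, that library is assumed to vary as the His libraries do, although the 2 IgG libraries correlated less well than the 2 His libraries.

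Over all 39 genes, both His libraries lay above both IgG libraries for 22 (56.4%), beside 37.7% of all listed genes, and below both for 2, Zfp809 and Sec61g, beside 5.7%. The groups overlapped for the other 15. All listed genes are not matched to members in level, since members held at least 20 CPM in both knockdown libraries. Of all listed genes 55.3% reached 1 CPM in both His libraries, against 69.2% of members and 95% of genes at that knockdown level. The share above was not counted for genes at that level. Thoc2l, Zfp943, Zfp345 and Glmn are among the 22 but were not tested, and each held 2 to 6 reads in 1 His library. Among the 28 tested members both His libraries lay above both IgG libraries for 18 (64.3%), beside 54.1% of all genes tested. The median difference between His and IgG on the log2(CPM + 1) scale was 3.66 for the 28 tested members and 2.01 for all genes tested; with genes at 0 in both IgG libraries set to their bound against 3 reads, these were 4.00 and 2.14. The member median is partly set by the filter, through which 15 of the 28 passed on His values alone, and it moved both ways with the setting. It was 5.85 with 0.1 added before the log (3.66 for all genes), 6.35 with edgeR (1.56) and 6.20 with DESeq2 (1.30). It was 2.19 with no filter (1.24 for all genes), 1.94 with 5 added before the log (0.94), 1.26 without His replicate A (0.82) and 0.66 without His replicate B (0.82). Both IgG libraries had 0 reads for 17 of the 39 members (43.6%) and for 52.6% of all listed genes, which are not matched in level. Among genes tested, both IgG libraries had 0 reads for 10 of 28 members (35.7%) and for 28.2% of all.

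**Figure D4:**
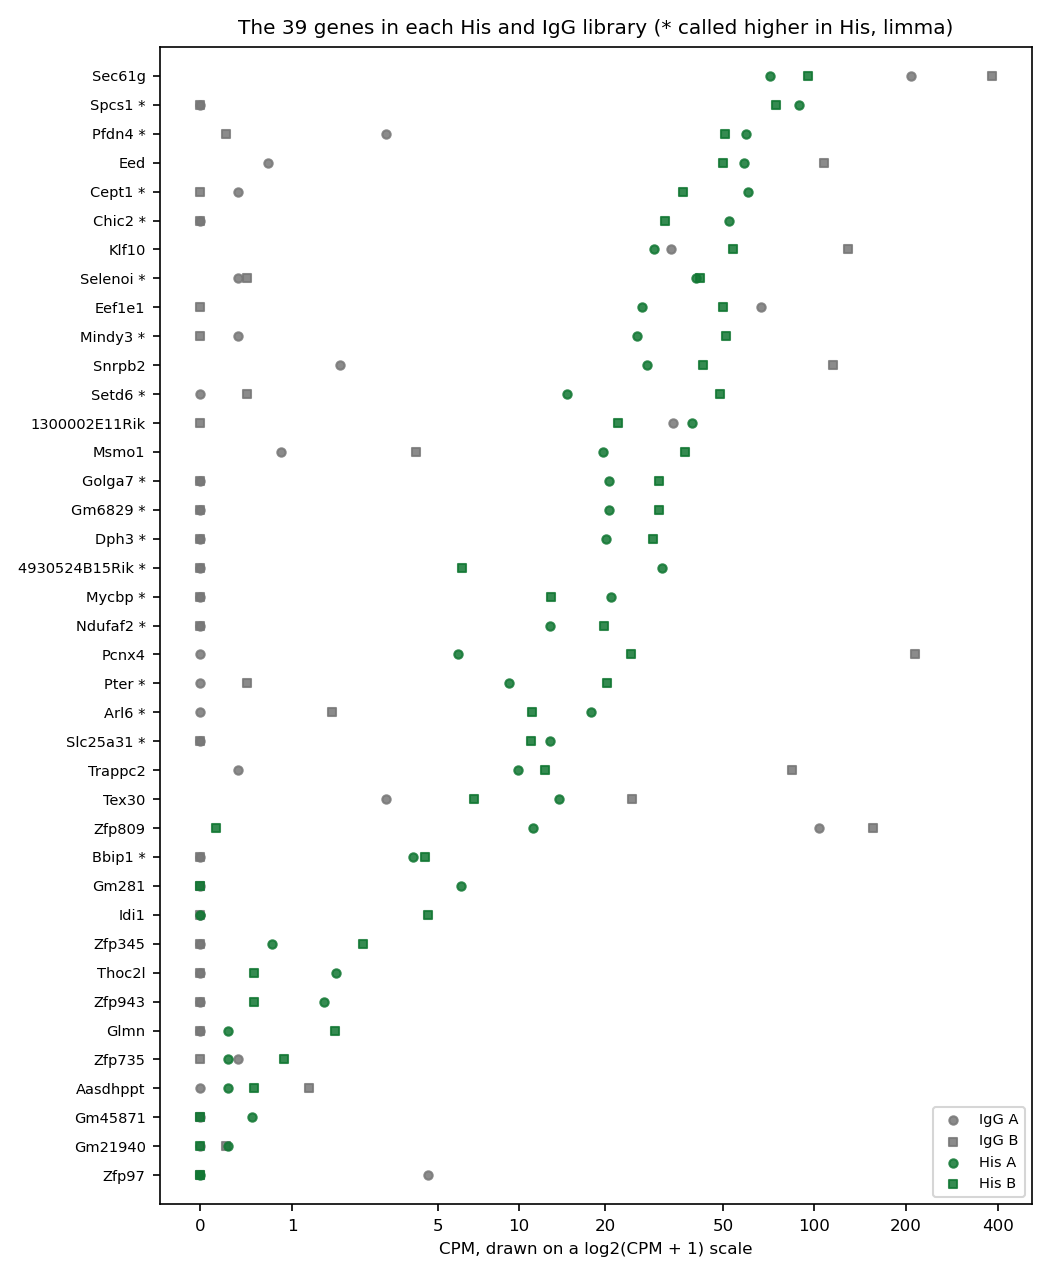
CPM of the 39 genes in the 2 His libraries (green) and the 2 IgG libraries (grey), ordered by mean His level, on a log2(CPM + 1) scale; circles are replicate A, squares replicate B, and an asterisk marks the 17 genes called higher in His by limma. IgG points lie at 0 for many genes, while for Eed, Pcnx4, Trappc2, Eef1e1 and 1300002E11Rik 1 IgG library is at 10 CPM or more and the other is under 1 CPM.

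Of the 17 genes that passed, 15 were under 1 CPM in both IgG libraries, and their levels are given as a description without their p-values. Spcs1 was at 89.2 and 75 CPM in His A and B with 0 reads in both IgG libraries, at least 143-fold higher against the floor of 3 reads per library. Slc25a31 was at 12.9 and 11.0 CPM in His A and B, also with 0 reads in both IgG libraries, at least 20.8-fold higher. Both genes had His libraries close to each other and no IgG read. Chic2 was at 52.1 and 32.0 CPM in His and 0 in IgG, at least 73.3-fold higher. Golga7, with Gm6829 as the same reads, was at 20.7 and 30.4 CPM, at least 44.5-fold higher. Dph3 was at 20.1 and 29.2 CPM, at least 42.9-fold higher. These 3 measurements also rest on 0 IgG reads. Mycbp was at 20.9 and 13.0 CPM in His, Ndufaf2 at 12.9 and 19.8 CPM, and Bbip1 at 3.95 and 4.42 CPM, all with 0 reads in both IgG libraries. Selenoi was at 40.5 and 41.9 CPM in His and at 0.338 and 0.427 CPM in IgG. The others of the 15 were Cept1, Mindy3, Pter, Setd6 and 4930524B15Rik. The 2 that reached 1 CPM in an IgG library were Pfdn4 and Arl6. Pfdn4 was at 59.3 and 50.8 CPM in His and at 3.04 and 0.214 CPM in IgG. Its log2 difference was 4.66 (SE 0.91, limma adjusted p 0.033). Over the alternatives that kept every library (limma settings, edgeR and DESeq2) its adjusted p was 0.00546 to 0.159. Fits with a library left out are not in this range. Arl6 was at 17.9 and 11.1 CPM in His and at 0 and 1.71 CPM in IgG. Its log2 difference was 3.20 (SE 0.71, limma adjusted p 0.0439, and 0.0198 to 0.215 over the alternatives that kept every library).

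Members with many reads in an IgG library did not pass with limma. Sec61g was at 71.5 and 95.2 CPM in His A and B and at 208 and 384 CPM in IgG A and B, so both His libraries were below both IgG libraries (log2 difference -1.76, SE 0.64, limma adjusted p 0.132); DESeq2 gave an adjusted p of 0.000136. Zfp809 was at 11.2 and 0.126 CPM in His and at 104 and 156 CPM in IgG. Its log2 difference was -5.11 (SE 1.56, limma adjusted p 0.0913, and 0.0228 to 0.26 over the alternatives that kept every library). Eed was at 58.5 and 49.9 CPM in His and at 0.675 and 108 CPM in IgG, so the 2 IgG libraries lay on either side of the His values. Snrpb2 had the same form, with 27.7 and 42.8 CPM in His and 1.86 and 115 CPM in IgG. Eef1e1 was at 26.7 and 50.1 against 66.8 and 0 CPM. Klf10 was at 29.4 and 53.7 CPM in His and at 33.4 and 129 CPM in IgG, which overlap. For Eed, Snrpb2, Eef1e1 and Klf10 the sign of the difference depended on which IgG library was used.

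Of the 5 zinc-finger members, 4 were at 2.40 CPM or less in each His library, and Zfp809 was at 11.2 CPM in His A and 0.126 CPM in His B. Zfp735 was at 0.239 and 0.884 CPM in His A and B, Zfp943 at 1.55 and 0.505, Zfp345 at 0.717 and 2.40, and Zfp97 had 0 reads in both. None of the 5 reached 1 CPM in both His libraries, whereas 71 of the 101 Zfp genes at 20 CPM or more in both knockdown libraries did (70.3%). Over all members, 27 of 39 (69.2%) reached 1 CPM in both His libraries, against 95% of the 4852 genes. With a control mean under 30 CPM it was 21 of 31 (67.7%) against 83.2% of 631 genes. These sets are not matched in control level, since the rule keeps the controls of a member more than 2-fold below its knockdown values. The RIP embryos carried no knockdown, so part of the lower shares may be set by the rule, which was not tested. Gm281 was at 6.10 CPM in His A (51 reads) and at 0 in His B and both IgG libraries. Idi1 was at 0 and 4.55 CPM in His and at 0 in IgG. Msmo1, the other sterol enzyme, was at 19.6 and 37.4 CPM in His and at 0.844 and 4.06 CPM in IgG. Its limma adjusted p was 0.0689, and 0.00279 to 0.139 over the alternatives that kept every library.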

How the data were processed

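RNA-seq and RIP libraries were made with the Smart-seq2 v4 and Nextera XT kits, per the labels' protocols. Per the submitters' processing notes, Trim Galore 0.6.7, FastQC, HISAT2 2.2.1, featureCounts 2.0.1, edgeR and build GRCm39 were used; their roles and settings are not given in the sources used here. The authors deposited CPM tables. Whole reads were recovered from the CPM steps (100.0% of values within 0.05 of a whole number), so a floor of 3 reads lies between 0.108 and 0.165 CPM for control and knockdown libraries, and between 0.359 and 0.641 CPM for RIP libraries; floors cover counting error only. Of 12 labelled samples 8 were used; 4 value columns were not used because their names do not decide between input and total, so 4 of 9 planned results were not run.

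Genes at 1 CPM or more in at least 2 of 4 libraries were tested with limma 3.58.1 (trended eBayes, R 4.3.3) on log2(CPM + 1), two-sided, Benjamini-Hochberg threshold 0.05; differences on this scale understate the change of low genes. Adding 1 before the log, filters, scaling, left-out libraries, a replicate block, edgeR 4.0.16 and DESeq2 1.42.0 on recovered reads were varied. The procedures were tested on simulated data. The members and all lists were chosen with earlier results of these data known. Values are named for the 25 members with the largest ratio, Gm281, Slc25a31 and list members, and in RIP for the 10 called genes with the smallest p and 5 uncalled genes with the highest His mean; other members are named for their function, chosen after their values were seen. Promoter windows are RefSeq sequences of build GRCm38.p6, matched by symbol for 33 members; 6 had none.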

Additional observations from a re-analysis of the deposited data

How the results depend on the processing

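The number of genes that met the rule was 39. It was 157 with a fold of 1.5, 2 with a fold of 3, 77 with a minimum of 10 CPM, 16 with a minimum of 50 CPM and 24 with median rescaling, of which 18 were members; leaving out 1 library gave 93 to 553. Genes called in knockdown against control went from 0 to 2 with a replicate block and 15 with DESeq2, and to 0 to 1894 when 1 library was left out (1894 without knockdown replicate A and 414 without knockdown replicate B, where the lone library is assumed to vary like the controls). Genes called on the pathway lists went from 0 to 1 with the replicate block, 2 with DESeq2 and 0 to 69 with 1 library left out. Replicate letters share only a letter: the same-letter correlation was 0.146 in the knockdown table and -0.014 in RIP.

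Genes called in His against IgG were 4111, 2356 when genes averaging under 5 CPM were dropped, 0 with edgeR, 3894 with the replicate block and 6 to 7679 with 1 library left out. Members called were 17, and 0 with edgeR, 15 with the replicate block and 0 to 27 with 1 library left out; fewer genes pass the filter without a His library. Sign changed without IgG replicate A for Eed (-0.98) and Snrpb2 (-1.71), without IgG replicate B for Klf10 (0.24) and Eef1e1 (-0.85), with edgeR for Eef1e1 (-0.05) and Snrpb2 (-0.64), and with DESeq2 for Eed (-0.11), Eef1e1 (-0.35) and Snrpb2 (-0.85). For these genes the range over the left-out libraries reached 5.04 for Eed, -1.67 for Klf10, 5.23 for Eef1e1 and 3.63 for Snrpb2. The cause was not tested. Each group held 2 libraries, and no comparison at changed depth was made; at the depth used, a level under 0.641 CPM cannot be told from 0 in the shallowest RIP library.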
